A study of Mus musculus with 15 samples.

Results

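The enzymes of the tricarboxylic acid cycle were followed through 9 genes, Cs, Idh1, Idh2, Idh3a, Ogdh, Sucla2, Fh1, Mdh1 and Mdh2, taken as the rows of the deposited mRNA table whose name equals a gene of this list. All 9 were found among 9666 genes, and all 9 passed the filter on low values that left 9389 genes for testing. The table holds 15 libraries of ventricular cardiomyocytes, the contractile cells of the lower heart chambers, from wild-type (WT) C57BL/6 mice, for which the labels name no other allele and no treatment. Of these, 7 came from adults of 8 to 12 weeks, 4 from postnatal day 1 (P1) and 4 from postnatal day 3 (P3). The series set neonatal against adult cells to look for genes that act in regrowth of heart muscle. The labels do not say that the libraries came from separate animals, so a p-value here rests on variation among libraries, part of which can be technical.

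The cycle runs in the mitochondrial matrix. It condenses acetyl-CoA with oxaloacetate, oxidises the product in steps that reduce NAD and FAD, and regenerates oxaloacetate, so that the respiratory chain can make ATP. Adult heart muscle is rich in mitochondria and draws mainly on fatty acids, whereas the heart around birth relies more on glycolysis. Idh1 and Mdh1 encode cytosolic relatives of matrix enzymes of the cycle.

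Of the 4 pairs of related enzymes compared here, Idh1 and Idh2 are the most alike in sequence and the pair whose relative level differed most from adults, so the bases upstream of both are shown here. They come from RefSeq (GRCm38.p6), read 5′ to 3′ on the gene's own minus strand, and end where the annotated exons begin. Capitals mark CCAAT, the box bound by NF-Y.
Idh1, chr1:65186501-65186640: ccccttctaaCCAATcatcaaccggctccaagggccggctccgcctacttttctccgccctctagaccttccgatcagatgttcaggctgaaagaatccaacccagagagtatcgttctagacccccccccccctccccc
Idh2, chr7:80115393-80115532: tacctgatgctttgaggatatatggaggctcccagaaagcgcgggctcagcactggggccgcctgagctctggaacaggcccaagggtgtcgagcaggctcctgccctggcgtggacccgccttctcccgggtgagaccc
The Idh1 box lies 151 bases before the RefSeq start. The Idh2 box lies 44 bases before its start, at the edge of the annotated exon, and is not whole in the printed run. G and C made up 58.6% of the Idh1 run and 65% of the Idh2 run. Over the 250 bases before the start, on both strands, CCAAT was found in 9 of the 14 RefSeq windows of members, beside 33.8% of all 32851 windows. The 9 windows belong to Cs, Idh1, Idh2, Ogdh, Fh1 and Mdh1, 6 of the 8 members with a window. Windows of Ogdh overlap and count the same boxes again. Boxes 60 and 92 bases before an Ogdh start lie 69 and 101 before another, and 122 and 154 before a further start. The share of all genes with a box is not given here. CACGTG, the E-box, was found for Ogdh alone and in 6.02% of all windows. TCAAGGTCA (estrogen-related receptor) and CCGGAAGT (GABP) were in 0 of the 14 member windows, and in 0.387% and 2.88% of all windows. These matches describe letters only.

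In mm10, with GENCODE annotation, the genes lie at chr10:128337734-128362479 (Cs), chr1:65158616-65186500 (Idh1), chr7:80094846-80115392 (Idh2), chr9:54586334-54604661 (Idh3a), chr11:6291633-6356642 (Ogdh), chr14:73525319-73596142 (Sucla2), chr1:175600374-175625635 (Fh1), chr11:21556787-21572367 (Mdh1) and chr5:135778480-135790398 (Mdh2). All 9 are protein coding. Exons of Mdh1 overlap those of Wdpcp on the opposite strand, and without known strand of counting their reads cannot be told apart. No other member shares exon bases with another gene. For reads that could be shared between paralogs, the reading frames of Idh1 and Idh2 were identical at 69.2% of aligned bases with a longest shared run of 19 bases, and those of Mdh1 and Mdh2 at 58.4% with a longest shared run of 11 bases.

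Values are RPKM, reads per kilobase of gene per 1e+06 mapped reads, as deposited. The RPKM denominators, recovered from the steps between low values, were 6.3 to 17.2 in units of 1e+06 reads. Each step was worth 2 units in adult replicates 1 to 4, whose denominators were 6.3 to 11.1, and 1 unit in adult replicates 5 to 7, at 16.8 to 17.2. The labels name no batch, so values are also given against each adult set where they part. Behind the values stood 208 reads or more in every library for Idh1 and 481 or more for Cs, Idh2, Idh3a, Sucla2, Mdh1 and Mdh2. These read numbers rest on lengths within 15.3% of a GENCODE transcript. The length behind Fh1 was 74.4% above its nearest transcript, so its reads are not given, and those of Ogdh could not be recovered. The 12 cardiomyocyte markers were all present, and their summed level was 19319 to 38135 RPKM in adult libraries, 6417 to 14836 in P1 and 751 to 6822 in P3. Within P3, replicate 1 held 6822 RPKM and the other replicates 1560, 840.3 and 751. Within P1, replicate 1 was lowest. Endothelial markers (9 of 12 analysed here) summed to 2.74 to 215 RPKM in adults, 210.1 to 481 in P1 and 706 to 1668 in P3, and fibroblast markers (6 of 10) to 1.27 to 82.6, 188 to 1535 and 421 to 857. Mural markers (4 of 8) ran from 31.8 to 120.3, 120.5 to 513 and 437 to 720, of which Acta2, with means of 27.4, 326 and 495 RPKM, made up most in neonatal libraries. Markers of immune and red blood cells were not analysed here.

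The 9 genes together held 1.23% to 1.60% of all RPKM in adult libraries. Their share was 0.337%, 0.729%, 0.668% and 0.610% in P1 replicates 1 to 4, and 0.488%, 0.226%, 0.175% and 0.183% in P3 replicates 1 to 4. No neonatal library reached the lowest adult one. In bulk RNA, fewer cardiomyocytes in a preparation and less of an RNA per cardiomyocyte cannot be told apart, and that holds for each member below.

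**Figure D1:**
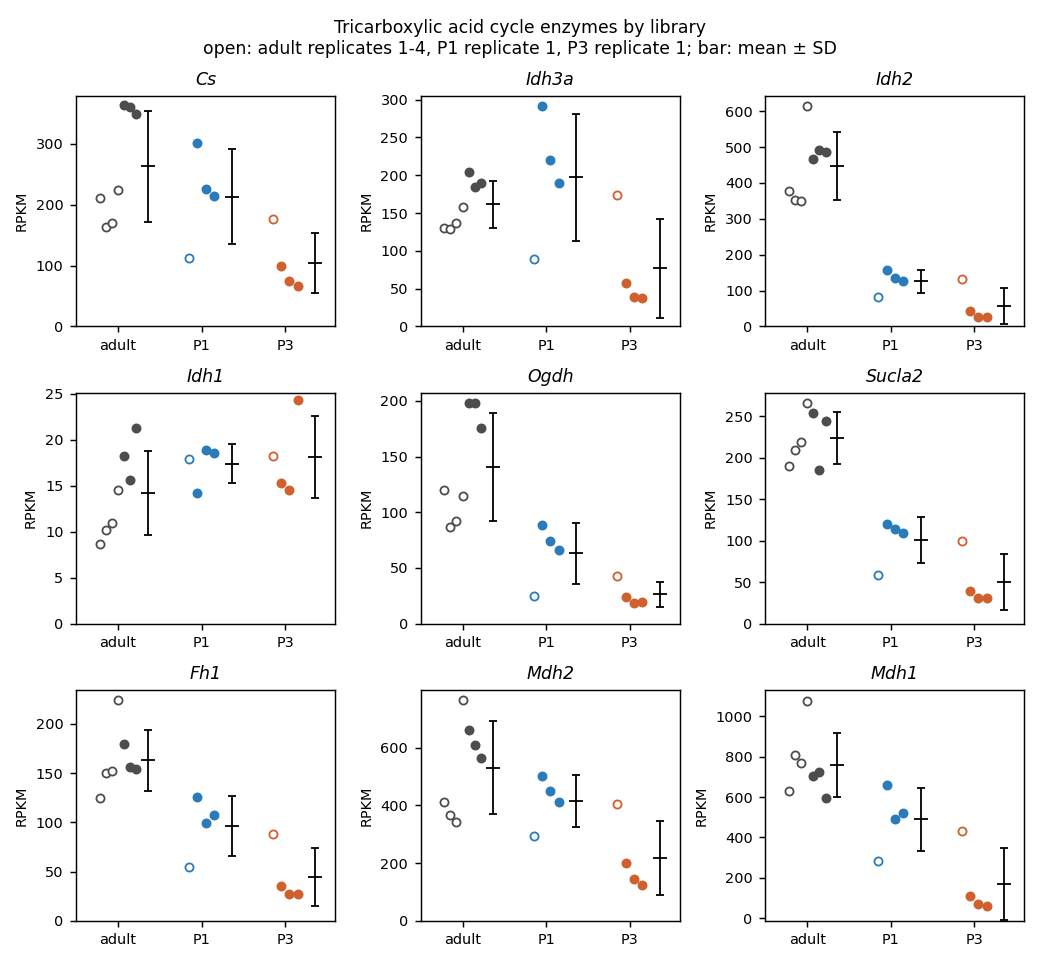
Level of each of the 9 genes (RPKM, linear axis per panel) in 7 adult, 4 P1 and 4 P3 libraries; points are libraries, bars are mean ± SD, and open symbols mark adult replicates 1 to 4, P1 replicate 1 and P3 replicate 1. Idh2 falls from 349 to 613 RPKM in adults to 26.8 to 132 in P3, while the 3 groups of Idh1 overlap between 8.68 and 24.3.

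Cs encodes citrate synthase, which makes citrate from acetyl-CoA and oxaloacetate. Adult libraries spanned 163 to 364 RPKM with a median of 224, P1 replicates 1 to 4 read 112, 301, 226 and 214, and P3 replicates read 176, 99.996, 74.0 and 66.6. P1 lay inside the adult range except for replicate 1, and P3 replicate 1 alone of its group reached the adult range. The P3 level was lower than the adult one, with a log2 change of -1.36 (limma, SE 0.33, adjusted p = 9.5e-04). The P1 change of -0.31 (adjusted p = 0.39, 95% interval -1.01 to 0.39) did not pass. The adult sets differed for this gene, at 163 to 224 RPKM in replicates 1 to 4 and 348 to 364 in replicates 5 to 7. Against replicates 1 to 4 the changes were 0.08 in P1 and -0.97 in P3 (adjusted p = 0.019), the latter short of the log2 threshold of 1, and against replicates 5 to 7 they were -0.83 and -1.88.

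Isocitrate is oxidised by 3 enzymes that these members represent, and the 3 genes took different courses. Idh3a encodes the catalytic alpha subunit of the NAD-dependent matrix enzyme, the form that drives the cycle forward. It read 129 to 205 RPKM in adults with a median of 157; P1 replicates 1 to 4 read 88.8, 291, 220 and 189, and P3 replicates read 174, 57.1, 39.5 and 37.0. In P1, 2 replicates exceeded every adult library and replicate 1 lay below all of them, whereas in P3 replicate 1 lay within the adult range and the other replicates below it. Its log2 change was 0.19 in P1 (adjusted p = 0.65, 95% interval -0.60 to 0.97) and -1.36 in P3 (SE 0.37, adjusted p = 0.0024). The adult sets differed for Idh3a, at 129 to 157 RPKM in replicates 1 to 4 and 185 to 205 in replicates 5 to 7. Against these sets the P1 change was 0.39 and -0.089 (limma, adjusted p = 0.43 and 0.88).

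Idh2 encodes the NADP-dependent matrix enzyme, a source of mitochondrial NADPH. It read 349 to 613 RPKM in adults with a median of 465; P1 replicates 1 to 4 read 81.3, 158, 136 and 128, and P3 replicates read 132, 43.3, 26.8 and 27.6. Every neonatal library lay below every adult one, by a wide gap. The log2 change was -1.84 in P1 (SE 0.35, adjusted p = 9.8e-05) and -3.26 in P3 (SE 0.35, adjusted p = 8.0e-08), the largest fall of the 9 genes in both comparisons. The mean was 448 ± 95.7 RPKM (SD, n = 7) in adults, 126 ± 32.4 (n = 4) in P1 and 57.5 ± 50.5 (n = 4) in P3. The fall also held against either adult set, at -1.74 and -1.97 in P1 and -3.16 and -3.39 in P3.

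Idh1 encodes the cytosolic and peroxisomal NADP-dependent enzyme. It read 8.68 to 21.3 RPKM in adults with a median of 14.5; P1 replicates 1 to 4 read 17.9, 14.2, 18.9 and 18.5, and P3 replicates read 18.2, 15.3, 14.5 and 24.3. The groups overlapped throughout. Log2 changes were 0.33 in P1 (adjusted p = 0.18, 95% interval -0.15 to 0.82) and 0.37 in P3 (adjusted p = 0.14, 95% interval -0.11 to 0.85), and neither passed. These values depend on the scale: under median-of-ratios scaling, which brings the median gene to about the same level in all libraries, they were -1.16 and -1.21 and passed as lower. The adult sets differed for Idh1, at 8.68 to 14.5 RPKM in replicates 1 to 4 and 15.6 to 21.3 in replicates 5 to 7. Against the former the P1 change was 0.64 (limma, adjusted p = 0.013), short of the log2 threshold of 1. Against the latter it was -0.075 (adjusted p = 0.73). In rank, Idh1 stood between 1115 and 2113 in adult libraries, between 2611 and 3377 in P1 and between 1951 and 3419 in P3, counted from the most abundant gene, so that P3 overlapped the adult range. It was the only member whose replicate 1 was neither lowest in P1 nor highest in P3.

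Ratios of genes within a library do not depend on how the library was scaled, so 4 of them were compared by two-sided exact permutation tests, with p-values adjusted over 12 tests. They can still shift with the mix of cells in a library, whose part was not tested. Idh3a over Idh2 was 0.257 to 0.440 in adults with a median of 0.377; P1 replicates 1 to 4 read 1.09, 1.84, 1.61 and 1.48, and P3 replicates read 1.31, 1.32, 1.47 and 1.34. Idh2 thus exceeded Idh3a in every adult library and lay below it in every neonatal one. The mean ratio was 4.09-fold higher in P1 (log2 2.03, exact p = 0.003, adjusted p = 0.0091) and 3.75-fold higher in P3 (log2 1.91, exact p = 0.003, adjusted p = 0.0091), where 0.003 is the smallest p this design can give. The P3 values were the tightest of any ratio, with an SD of 0.08 on the log2 scale (n = 4), although the RPKM of both genes differed several-fold between the same libraries. P3 and P1 differed by -0.12 (exact p = 0.43, adjusted p = 0.43).

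Idh1 over Idh2 was 0.0230 to 0.0437 in adults with a median of 0.0313; P1 replicates 1 to 4 read 0.220, 0.0899, 0.139 and 0.145, and P3 replicates read 0.138, 0.352, 0.542 and 0.882. Neonatal and adult libraries did not overlap, and within P3 replicate 1 had the lowest ratio. The mean log2(RPKM + 0.5) of the cardiomyocyte markers in P3 replicates 1 to 4 was 7.91, 6.01, 5.30 and 5.26. P1 replicate 1, with the highest P1 ratio, had the lowest P1 marker mean, 7.60. A shift of this ratio within cardiomyocytes and a different mix of cells cannot be told apart here. The mean ratio was 4.57-fold higher in P1 (log2 2.19) and 12.6-fold higher in P3 (log2 3.66) than in adults, both with an exact p = 0.003 and adjusted p = 0.0091. The difference between P3 and P1, 1.47 on the log2 scale, did not pass (exact p = 0.11, adjusted p = 0.17). Against adult replicates 1 to 4 or 5 to 7 alone the differences in both isocitrate ratios lay between 1.76 and 3.88. The exact permutation tests of those smaller designs gave adjusted p-values of 0.057 to 0.14. Their smallest exact p is 0.029 before adjustment over 12 tests, so groups without overlap can also miss the threshold.

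**Figure D2:**
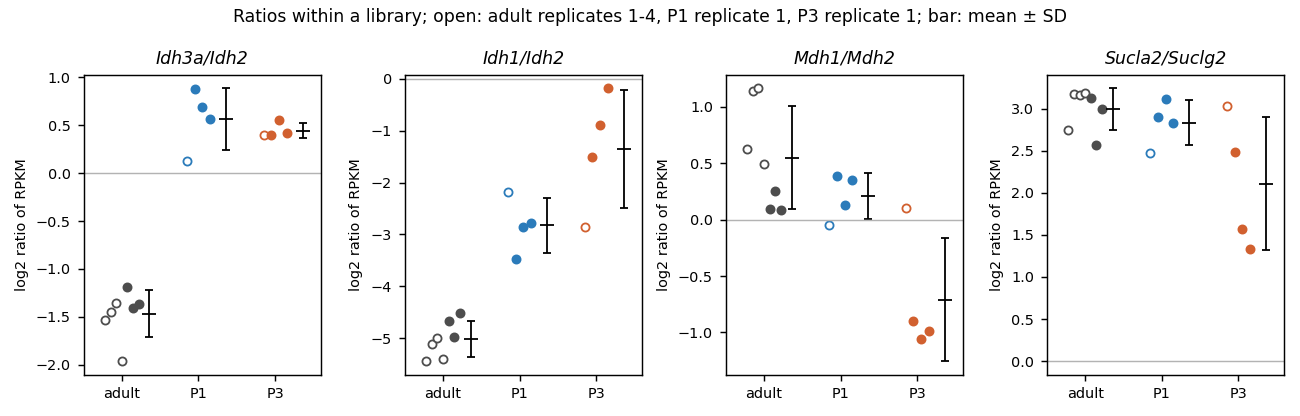
Log2 ratio of RPKM within each library for Idh3a over Idh2, Idh1 over Idh2, Mdh1 over Mdh2 and Sucla2 over Suclg2, in 7 adult, 4 P1 and 4 P3 libraries; points are libraries and bars the group mean ± SD. The isocitrate dehydrogenase ratios of neonatal libraries all lie above the adult ones, while P3 replicate 1 stands with the adult libraries for Mdh1 over Mdh2, at a ratio of 1.07.

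Ogdh encodes the E1 subunit of the 2-oxoglutarate dehydrogenase complex, which makes succinyl-CoA. It read 87.0 to 198 RPKM in adults with a median of 120.3; P1 replicates 1 to 4 read 24.9, 88.4, 73.9 and 65.7, and P3 replicates read 42.6, 24.1, 18.5 and 19.6. P1 replicate 2 just reached the lowest adult value and all P3 replicates lay below the adult range. The change was -1.22 in P1 (SE 0.34, adjusted p = 0.0030) and -2.41 in P3 (SE 0.34, adjusted p = 2.5e-06). The P1 call rested on 1 library and on the adult set: it was -0.82 without P1 replicate 1, and -0.84 against adult replicates 1 to 4 but -1.72 against replicates 5 to 7.

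Sucla2 encodes the ADP-forming beta subunit of succinyl-CoA ligase, which yields ATP directly. It read 185 to 266 RPKM in adults with a median of 219; P1 replicates 1 to 4 read 59.1, 119.6, 114 and 109, and P3 replicates read 99.8, 38.7, 31.3 and 30.4. No neonatal library reached an adult one. The change was -1.19 in P1 (SE 0.30, adjusted p = 0.0011) and -2.33 in P3 (SE 0.30, adjusted p = 6.1e-07), and without P1 replicate 1 the P1 change was -0.96, short of the threshold. Its GDP-forming counterpart Suclg2 was the less abundant subunit in every library. Sucla2 over Suclg2 was 5.94 to 9.14 in adults with a median of 8.77; P1 replicates 1 to 4 read 5.56, 7.50, 8.68 and 7.11, and P3 replicates read 8.15, 5.62, 2.98 and 2.53. The P3 ratio was lower than the adult one by 0.89 on the log2 scale (difference -0.89, exact p = 0.015, adjusted p = 0.030), with P3 replicate 1 inside the adult range. Leaving out P3 replicate 2, 3 or 4 gave adjusted p-values of 0.067 to 0.083 in the exact permutation test, with log2 differences of -1.02, -0.71 and -0.63.

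Fh1 encodes fumarase, which hydrates fumarate to malate. It read 124 to 224 RPKM in adults with a median of 155; P1 replicates 1 to 4 read 54.4, 125, 99.0 and 107, and P3 replicates read 88.5, 35.1, 26.8 and 27.5. P1 replicate 2 alone touched the adult range. The P1 change of -0.80 (adjusted p = 0.021) was short of the log2 threshold of 1, and the P3 change was -2.03 (SE 0.30, adjusted p = 4.9e-06).

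Mdh2 encodes mitochondrial malate dehydrogenase, which closes the cycle by regenerating oxaloacetate. It read 342 to 766 RPKM in adults with a median of 563; P1 replicates 1 to 4 read 293, 503, 450.2 and 410, and P3 replicates read 404, 201, 144 and 123. P1 and adult libraries overlapped, and P3 replicate 1 lay within the adult range. The change was -0.33 in P1 (adjusted p = 0.36, 95% interval -1.02 to 0.37) and -1.38 in P3 (SE 0.33, adjusted p = 7.4e-04).

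Mdh1 encodes the cytosolic malate dehydrogenase of the malate-aspartate shuttle, which carries reducing equivalents into mitochondria. It was the most abundant member in adults, at 597 to 1076 RPKM with a median of 724, and read 283, 659, 492 and 523 in P1 replicates 1 to 4 and 433, 108, 69.2 and 61.9 in P3 replicates. All P3 libraries lay below the adult range, and replicate 1 was the nearest to it. The change was -0.67 in P1 (adjusted p = 0.14, 95% interval -1.54 to 0.20) and -2.64 in P3 (SE 0.42, adjusted p = 9.2e-06). Mdh1 over Mdh2 was 1.06 to 2.24 in adults with a median of 1.40; P1 replicates 1 to 4 read 0.968, 1.31, 1.09 and 1.28, and P3 replicates read 1.07, 0.537, 0.480 and 0.505. Mdh2 exceeded Mdh1 in P3 replicates 2, 3 and 4 and in P1 replicate 1, and Mdh1 was the higher of the pair in every other library. The P3 ratio was lower than the adult one (log2 difference -1.26, exact p = 0.0091, adjusted p = 0.022), and the P1 ratio was not shown to differ (-0.34, exact p = 0.20, adjusted p = 0.24). Adult replicates 5 to 7 read 1.06 to 1.19, so that against them alone the P3 difference was -0.85, against -1.57 from replicates 1 to 4. Without P3 replicate 2, 3 or 4 the adjusted p was 0.06 in the exact permutation test, with log2 differences of -1.20, -1.14 and -1.17.

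Counted over the list, 3 of 9 members were called lower in P1 (Idh2, Ogdh and Sucla2) and 0 higher, where calling required a log2 change of 1 or more in size and p under 0.05 after Benjamini-Hochberg adjustment over all 9389 genes. Over all genes tested 4.32% were called lower and 62.7% higher in the same comparison. In P3, 8 of 9 were called lower, all but Idh1, and 0 higher, beside 9.16% lower and 62.7% higher over all genes. Groups without overlap, all neonatal libraries below all adult ones, were seen for 2 of 9 in P1 (Idh2 and Sucla2; 4.86% of all genes) and 5 of 9 in P3 (Idh2, Ogdh, Sucla2, Fh1 and Mdh1; 7.99% of all genes). The P1 and P3 comparisons share the 7 adult libraries. The members' median change was -0.67 in P1 and -2.03 in P3, whereas the median of all tested genes was 1.36 and 1.48, and all 9 members lay below that median gene in both. Most genes were called higher on the deposited scale, and the split of calls moved with the scale. Under median-of-ratios scaling 19.8% of genes were called lower and 16.6% higher in P1, and 24.9% and 22.8% in P3, and all 9 members were called lower in both. Without P1 replicate 1, the call in P1 was 1 of 9, Idh2 at -1.64, beside 3.77% of all genes called lower.

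Between the neonatal days, 5 of 9 members were called lower in P3 than in P1 and 0 higher, beside 5.31% and 1.4% of all genes. They were Mdh1 (-1.97, adjusted p = 0.020), Idh3a (-1.54, 0.031), Idh2 (-1.42, 0.035), Fh1 (-1.23, 0.033) and Sucla2 (-1.14, 0.040). Ogdh, Cs and Mdh2 had changes of -1.20, -1.06 and -1.06 with adjusted p-values of 0.057, 0.080 and 0.076, and Idh1 had 0.03 (adjusted p = 0.94). The groups were free of overlap, with P3 lower, for 0 of 9 members (2.53% of all genes), and P3 replicate 1 lay above P1 replicate 1 for all 9. This comparison turned on single libraries: 8 of 9 were called without P1 replicate 1 or without P3 replicate 1, beside 8.53% and 9.48% of all genes called lower. Without any of the other neonatal replicates 0 of 9 were called, beside 0.64% to 1.56% of all genes. Calling thus moved over the whole table.

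**Figure D3:**
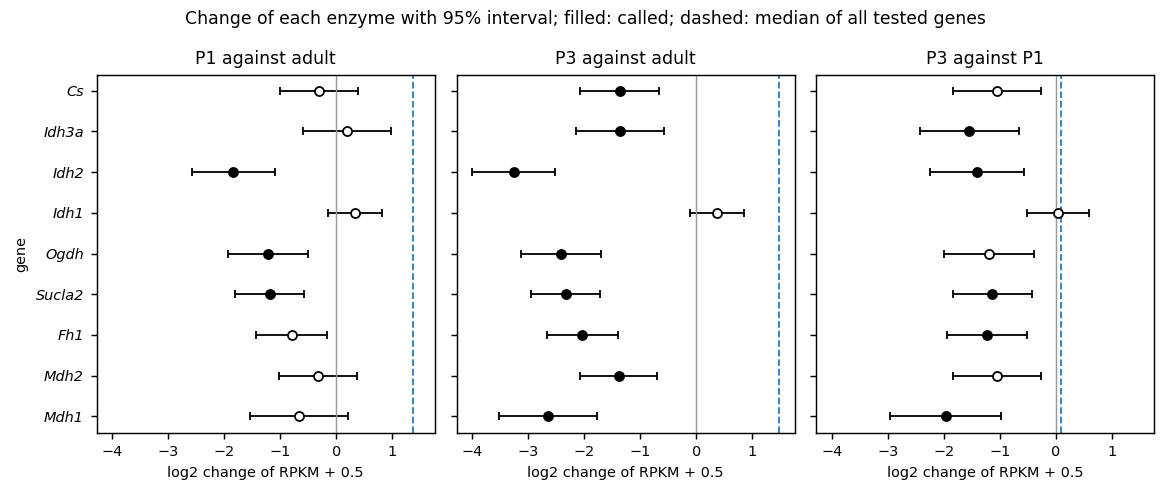
Log2 change with 95% interval for each of the 9 genes in 3 panels, P1 or P3 against adult and P3 against P1 (limma on log2(RPKM + 0.5)); filled points are called, and lines mark 0 (solid) and the median of all tested genes (dashed). In P3 against adult 8 members lie between -3.26 and -1.36 and Idh1 at 0.37, while the median gene lies at 1.48.

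Cardiomyocyte markers moved with these changes. Of the 12 markers 6 were called lower in P1, 12 in P3 and 10 in P3 against P1, with medians of -1.13, -3.68 and -2.53. Over all genes 4.32%, 9.16% and 5.31% were called lower in those comparisons. Endothelial markers were called higher for 8 of 9 in P1 and 9 of 9 in P3, and fibroblast markers for 6 of 6 in both. On the same scale 62.7% of all genes were called higher in P1 and 62.7% in P3. Mural markers were called higher for 1 of 4 in P1 (Acta2) and 2 of 4 in P3 (Acta2 and Myh11), while Rgs5 and Abcc9 had changes of -1.62 and -0.87 in P1 and -0.60 and -0.29 in P3, none called. Their part in the members' changes was not tested. Set against the mean log2 level of the 12 cardiomyocyte markers in the same library, with no test, no member was lower in P3: the difference from adults was 0.33 for Idh2, 0.95 for Mdh1, 1.17 for Ogdh, 1.26 for Sucla2, 1.55 for Fh1, 2.20 for Mdh2, 2.22 for Cs, 2.23 for Idh3a and 3.96 for Idh1. For 7 of them the P3 libraries all lay above the adult ones on this measure, and for Idh2 and Ogdh the groups overlapped. In P1 the same measure put Idh2 below every adult library, at -0.73, and Cs (0.80), Idh3a (1.30) and Idh1 (1.44) above them, with overlap for the other 5. The markers are themselves genes whose RNA per cell can change with age, which cannot be told apart here from the number of cells.

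**Figure D4:**
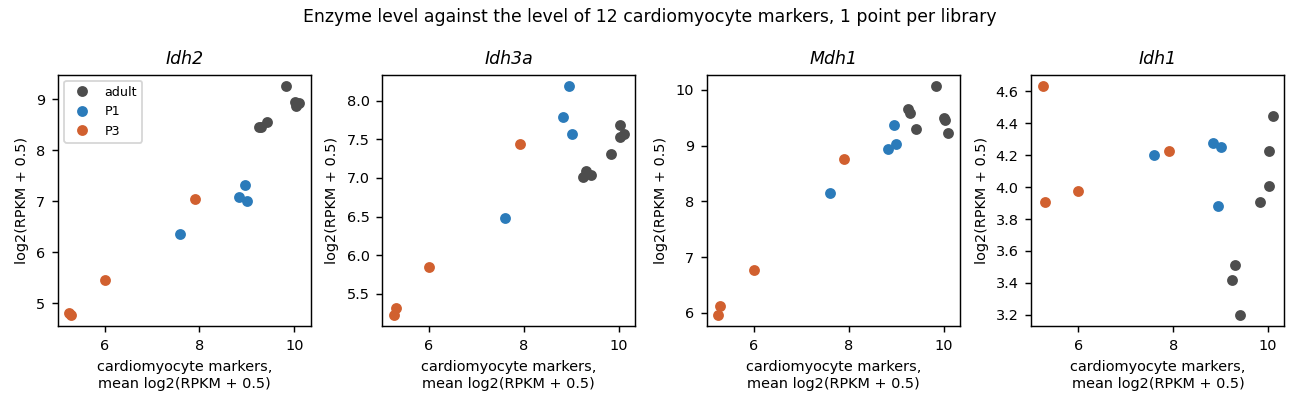
Log2(RPKM + 0.5) of Idh2, Idh3a, Mdh1 and Idh1 (y axis) against the mean log2(RPKM + 0.5) of the 12 cardiomyocyte markers (x axis), 1 point per library, coloured by group (7 adult, 4 P1, 4 P3). P3 replicate 1 has a marker mean of 7.91, against 5.26 to 6.01 in the other P3 libraries and 9.25 to 10.10 in adults, and lies above the other P3 libraries for Idh2, Idh3a and Mdh1 but not for Idh1.

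By level per length within a group, Mdh1, Mdh2 and Idh2 led in adults with means of 758, 531 and 448 RPKM, followed by Cs at 263, Sucla2 at 224, Fh1 at 163, Idh3a at 162, Ogdh at 141 and Idh1 at 14.2. The length behind Fh1 was 74.4% above its nearest GENCODE transcript and that of Ogdh was not recovered. Places relative to these genes are therefore uncertain in all groups. Idh2 dropped from the 3rd place to the 5th in P1 and P3, behind Cs and Idh3a, and in P3 Mdh2 (218 RPKM) stood before Mdh1 (168 RPKM). Neighbours in these orders overlapped in range, except Ogdh and Idh1 in adults and in P1. Within single libraries some steps of the order were steadier: Mdh1 exceeded Mdh2 in 7 of 7 adult libraries, Idh2 exceeded Cs in 7 of 7, and Cs exceeded Idh3a in all 4 P1 and all 4 P3 libraries. In rank among all genes Mdh1 stood between 23 and 38 in adults and between 120 and 642 in P3, and Idh2 between 41 and 67 in adults and between 422 and 1900 in P3.

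The other enzymes and subunits of the cycle form a list of 12 genes. In P1, 4 of 12 were called lower and 0 higher, beside 4.32% and 62.7% of all genes: Ogdhl (-3.91), Idh3b (-1.12), Sdhb (-1.08) and Suclg2 (-1.004). In P3, 11 of 12 were called lower, all but Dlst (-0.86), beside 9.16% of all genes, with a list median of -1.68. The P1 changes of Sdhd and Dlst, 0.28 and 0.024, were not called. In P3 against P1, 7 of 12 were called lower, beside 5.31% of all genes, among them Sdhd (-1.31), Sdhb (-1.29), Suclg1 (-1.24), Sdhc (-1.19), Sdha (-1.16) and Idh3g (-1.11). Ogdhl, a relative of Ogdh, had the largest fall, with 14.2 to 28.3 RPKM in adults, 0.61 to 1.07 RPKM in P1 libraries and 0.31 to 0.42 RPKM in those of P3.

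Of 14 enzymes that feed or drain the cycle, 5 were called higher and 5 lower in P1, beside 62.7% and 4.32% of all genes, and 6 higher and 7 lower in P3, beside 62.7% and 9.16%. The share called higher was thus below that of all genes at both ages. Acly, which splits exported citrate in the cytosol for lipid synthesis, read 1.24 to 3.42 RPKM in adults, 19.99 to 34.8 in P1 and 31.2 to 42.7 in P3, with changes of 3.27 and 3.79. Slc25a1, the mitochondrial citrate exporter, read 0.11 to 1.04, 6.16 to 20.6 and 12.6 to 21.1 RPKM, with changes of 3.35 and 4.09; adult levels this low rest on few reads. Me2, the NAD-linked matrix malic enzyme, rose by 2.76 in P1. Lower partners included Me3, the NADP-linked mitochondrial malic enzyme, at -2.20 in P1 and -3.28 in P3, and Nnt, the mitochondrial transhydrogenase that makes NADPH, at -1.83 and -2.93.

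Among 8 genes of the malate-aspartate shuttle and the cycle's acid carriers, 2 were called higher and 2 lower in P1, beside 62.7% and 4.32% of all genes. In P3, 1 was called higher and 5 lower, beside 62.7% and 9.16%. The shuttle's aspartate aminotransferases, cytosolic Got1 and mitochondrial Got2, were called lower in P3 (-2.22 and -1.67) beside Mdh1. The oxoglutarate carrier Slc25a11 (-1.19 in P1, -2.41 in P3) and the aspartate-glutamate carrier Slc25a13 (-1.89 and -2.73) were called lower at both ages. Slc25a12, also an aspartate-glutamate carrier, was called lower in P3 against adult (-1.29) and against P1 (-1.48). In P3 against P1, 4 of the 8 were called lower, beside 5.31% of all genes.

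Over the 15 libraries, the gene whose log2 level was most like each member's, out of 9387 others, was Got2 for Cs (Pearson r = 0.98), Erlec1 for Idh1 (0.92), Phyh for Idh2 (1.00), Slc25a12 for Idh3a (0.99), Gnpat for Ogdh (0.99), Etfa for Sucla2 (1.00), Ndufa9 for Fh1 (1.00), Atp5f1 for Mdh1 (0.99) and Pmpcb for Mdh2 (0.99). Idh2 was also near Ckm (1.00) and S100a1 (0.99). These values are descriptions over libraries of 3 ages that also differ in depth and in the level of cardiomyocyte markers. Within the list, Idh2 and Sucla2 were most alike (0.99), and Idh1 stood apart, with correlations of -0.37 to -0.06 with the other 8.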

How the data were processed

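Total RNA was taken from heart cells with TRIzol and made into Illumina libraries, per the labels' protocols. The authors deposited 1 table of RPKM values, per the file headers, with 1 column for each of the 15 libraries; 0 columns were left unused. HISAT2, the mouse genome build mm10 and Partek 6.6 appear in the submitters' processing notes. How reads were assigned to genes, on which annotation and with or without strand, is not given in the sources used here. No deposited RPKM lies under 0.100, so a gene below 0.1 in 1 library or more was not analysed here.

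The filter kept the 9389 of 9666 genes that reached an RPKM of 1 in 4 or more of the 15 libraries. Their log2(RPKM + 0.5) values were fitted by group with limma 3.58.1 (R 4.3.3), using moderated variances with an intensity trend. All 15 libraries shared 1 estimate of spread, with Benjamini-Hochberg adjustment over all tested genes. The pseudocount understates the change of low genes. Ratios of RPKM were compared by two-sided exact permutation tests in Python 3.11.15 (numpy 2.4.6, pandas 2.3.3), over 330 splits against adults and 70 between P1 and P3, whose smallest p is 0.029. The limma step was also run on simulated data with independent noise for each gene. That setting does not copy differences between whole libraries, and no result here rests on it. Whole reads were recovered for 1964 of 2215 low genes (88.7%) at a relative tolerance of 1e-05, and the denominator is the value shared by the most transcript lengths (355, against 42 at the next value), so depth is an estimate. The highest correlation between libraries was 0.99, and 0 pairs held identical values.

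The members and gene lists were chosen with earlier results of these data known. Named genes are the members, all genes of the cycle lists, and for each member the 3 genes most correlated with it; some listed genes are not reported here. Alternatives covered the pseudocount, the filter, 4 scalings, each adult set, a replicate block, the variance trend and leaving out each library. Leaving out P1 replicate 1 and P3 replicate 1 together was chosen after seeing the data.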

Additional observations from a re-analysis of the deposited data

Results flagged for a closer look

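Of 39 groups of libraries examined for a single value far from the rest, 2 held one, and chance gives about 1 in 20. Sucla2 in P1 replicate 1 had a log2 RPKM of 5.90, while the other P1 replicates read 6.77 to 6.91, a gap of 0.87 of the group's range. Mdh1 over Mdh2 in P3 replicate 1 had a log2 ratio of 0.10, while the other P3 replicates read -1.06 to -0.90, a gap of 0.86 of the range. The mean log2 level of the cardiomyocyte markers was 7.60 in P1 replicate 1, against 8.83 to 9.004 in the other P1 replicates, and 7.91 in P3 replicate 1, against 5.26 to 6.01 in the other P3 replicates. The mean log2 level of the fibroblast markers was 7.37 in P1 replicate 1, against 4.23 to 4.47 in the other P1 replicates. The part of these markers in both values was not tested.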

How the results depend on the processing

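In P3 against adult, 6 to 9 of 9 members were called under every alternative run, beside 8.25% to 24.9% of all genes called lower. Each left-out library gave 8, beside 8.48% to 10.4% of all genes. Other counts moved. In P1 against adult, 6 were called under quantile normalization, 9 under median-of-ratios scaling and 7 under an equal RPKM sum with or without the 100 highest genes, against 3 on the deposited scale. The share of all genes called lower moved as well, to 18.1%, 19.8%, 9.13% and 12.2% in the same order, against 4.32%. Leaving out each library gave 1 to 3, beside 3.77% to 4.75% of all genes. There was 1 without P1 replicate 1 (3.77% of all genes), and 1 without P1 replicate 1 and P3 replicate 1 together (3.79%). In P3 against P1, 8 were called under median-of-ratios scaling (6.32% of all genes) and under an equal sum without the 100 highest genes (5.6%). Without both those libraries 8 were called (11.6% of all genes), and over left-out libraries 0 to 8 (0.64% to 9.48%). The cause was not tested.

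Directions turned for genes that were not called. Under quantile, median-of-ratios, equal-sum and equal-sum without the 100 highest genes, Idh1 was -0.96, -1.16, -0.34 and -0.64 in P1 and -0.98, -1.21, -0.18 and -0.59 in P3 against adult, and Idh3a was -0.64, -1.36, -0.51 and -0.82 in P1. Against adult replicates 5 to 7 alone Idh1 was -0.075 in P1 and -0.041 in P3, Idh3a was -0.089 in P1, and Mdh1 over Mdh2 was 0.063 in P1. Cs in P1 was 0.081 against adult replicates 1 to 4. Idh1 in P3 against P1 was -0.019 under quantile normalization and -0.046 under median-of-ratios scaling, and ran from -0.11 to 0.13 over left-out libraries, with -0.055 without P1 replicate 2 and -0.11 without P3 replicate 4. Idh3a in P1 ran from -0.041 (without P1 replicate 2) to 0.53.

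Ratios against 1 adult set missed the threshold, a design with fewer samples. Its smallest exact p is 0.029 before adjustment over 12 tests, so a miss does not show that a difference is absent. With adult replicates 1 to 4 these log2 differences were 2.41 (P1) and 3.88 (P3) for Idh1 over Idh2, 2.14 and 2.02 for Idh3a over Idh2, and -1.57 and -0.96 for Mdh1 over Mdh2 and Sucla2 over Suclg2 in P3. With replicates 5 to 7 they were 1.90, 3.36, 1.88, 1.76, -0.85 and -0.79 in the same order. Over left-out libraries Mdh1 over Mdh2 ran from -1.53 to -1.14 and Sucla2 over Suclg2 from -1.20 to -0.63 in P3 against adult. In P3 against P1, Idh1 over Idh2 ran from 1.07 to 1.97, Idh3a over Idh2 from -0.27 to -0.018 and Mdh1 over Mdh2 from -1.19 to -0.80, each passing in 1 of 8 (exact permutation test, adjusted p = 0.043, 0.049 and 0.043).

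Replicate numbers gave no steady sign of pairing in the deviations from group means. Same-numbered libraries of P1 and adult correlated at 0.28, 0.12, 0.08 and -0.02. Those of P3 and adult correlated at -0.42, -0.07, -0.05 and 0.01, and those of P3 and P1 at -0.51, -0.05, -0.25 and 0.37. In groups this small such deviations depend on each other, so they cannot show whether samples were paired. With the replicate number as a block, 2 members were called in P1 and 6 in P3 against adult, and 0 in P3 against P1. Beside them 3.64%, 8.25% and 1.14% of all genes were called lower. Numbers above 4 occur only in adults, so with the block the changes against adult rested on adult replicates 1 to 4 alone. The members' log2 changes against adult equalled those of the fit with that adult set, among them Cs in P1 at 0.081. Only their p-values differed, so for these changes the block is not a separate check. In all, 506 changes of single members kept direction and side of the threshold, 31 crossed to called, 44 crossed to not called and 22 turned. Depth limits Idh1 most among the members with recovered reads, at 208 to 889 reads.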

Other observations

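Of the 3 subunits of the NAD-dependent isocitrate dehydrogenase, Idh3b was called lower in P1 than in adults (limma, -1.12, 95% interval -1.69 to -0.54). Idh3g had -0.72, short of the log2 threshold, with all P1 libraries below the adult ones, and Idh3a had 0.19 (95% interval -0.60 to 0.97). The difference between subunits was not tested. Idh3b read 211 to 380 RPKM in adults and 84.7 to 168 in P1. Of the 2-oxoglutarate dehydrogenase complex, Ogdh was called lower in P1 at -1.22, and Dlst, its succinyl-transferring subunit, read 79.0 to 153 RPKM in adults and 68.8 to 155 in P1.

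Of the 4 assembly factors of succinate dehydrogenase, 0 were called in P1 and 1 in P3 against adult (Sdhaf4, -1.17). Over all genes 4.32% were called lower and 62.7% higher in P1, and 9.16% and 62.7% in P3. The list medians were -0.20 and -0.50, below the medians of all tested genes, 1.36 and 1.48. The catalytic subunits Sdha and Sdhb read 52.3 to 153 and 62.7 to 206 RPKM in P3. Adult libraries read 235 to 372 and 382 to 746 RPKM.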
